A study of Mus musculus with 13 samples.

Results

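The genes described here make cholesterol, sense it or move it. They are 28 genes of the mevalonate and sterol synthesis pathway, of its control by the SREBP transcription factors and of sterol carriage and export, chosen by gene symbol for what they do. A row was matched to 24 of them, among 19505 gene symbols with a row in all, and Acat2, Tm7sf2, Srebf1 and Nr1h2 were not analysed here. Expression was measured on 13 Affymetrix arrays of whole mouse bone marrow, as a log2 signal per gene, so a difference of 1 is a doubling.

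The marrow was that of C57Bl/6J mice that had been irradiated with 7 Gy. They received LSK cells, a marrow fraction rich in blood stem and progenitor cells, from Cas9 knock-in mice, 24 h after guide RNAs had been introduced. BRSST+sgEzh2 (4 arrays) carried the guide combination that the submitters call BRSST together with a guide against Ezh2, BRSST+sgLuc (5 arrays) carried BRSST with sgLuc, and sgLuc (4 arrays) carried sgLuc without BRSST. The labels do not spell out BRSST. Cas9, irradiation and transplantation were thus common to all 3 groups, and whole marrow also holds cells of the host that no guide reached. Marrow was taken when a mouse showed signs of leukemia or after 6 months, and the labels do not tell which of these applied to each array. They also give no age or sex of the mice, and they do not tie each array to its own mouse. The p-values here therefore rest on differences between samples that could be technical.

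Cholesterol is built from acetyl units by way of mevalonate and squalene, through a chain of enzymes most of which sit in the endoplasmic reticulum. When sterols in that membrane run low, Scap carries the SREBP factors to the Golgi, where they are cut and released to switch on the genes of the pathway, and when sterols are plentiful the Insig proteins hold Scap back. Blood-forming cells make cholesterol as they grow and divide, and macrophages and other myeloid cells also shed it through LXR-driven transporters.

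The genes were measurable in marrow with few exceptions. Idi1 lay below its array's lower quartile of signal on 13 of 13 arrays and Insig2 lay above the array median on 0 of 13, so both failed the filter used here (above the array's median on at least 4 arrays) and were not tested. The other 22 were tested among 10601 genes. Sqle passed the filter only through sgLuc, where it is high: it was above the array median on 4 arrays, all of them sgLuc, and had to be lower elsewhere. It is part of the counts and medians over the 22 genes below, and these are descriptions. Median signals of the arrays ran from log2 7.19 to 7.32. Ezh2, which encodes the catalytic subunit of Polycomb repressive complex 2 and checks the labels, had log2 signals of 8.08, 9.0, 8.81 and 9.22 on the BRSST+sgEzh2 arrays, 9.86, 10.08, 10.46, 9.56 and 9.15 on BRSST+sgLuc and 10.42, 10.48, 9.94 and 10.55 on sgLuc. It was below sgLuc on each BRSST+sgEzh2 array (log2 -1.57 ± 0.28, SE, n = 4 and 4, limma adjusted p = 0.00306). Against BRSST+sgLuc the arrays overlapped and the difference did not pass (log2 -1.05 ± 0.26, SE, n = 4 and 5, limma adjusted p = 0.0808). Over the 9 fits that left out 1 array, the limma adjusted p ran from 0.0414 (without BRSST+sgLuc replicate 5) to 0.203.

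RefSeq promoter windows of GRCm38.p6, each the 250 bases before an annotated transcription start, were found for 23 of the 28 genes. Printed is that of Hmgcs1, the one gene among them with an exact match to the sterol regulatory element letters searched, TCACNCCAC. Also printed are those of Mvd, Hsd17b7 and Srebf2. These are the 3 genes with a window whose BRSST+sgLuc arrays all lay below the sgLuc arrays in a difference that passed. The Hmgcs1 window is chr13:119690101-119690350 on the plus strand, the Mvd window chr8:122443423-122443672 on the minus strand, the Hsd17b7 window chr1:169969206-169969455 on the minus strand and the Srebf2 window chr15:82147019-82147268 on the plus strand. Each runs 5′ to 3′ towards the start site, and capitals mark the sterol regulatory element TCACNCCAC, the E-box CACGTG and the CCAAT box (CCAAT, or ATTGG on the other strand).
Hmgcs1: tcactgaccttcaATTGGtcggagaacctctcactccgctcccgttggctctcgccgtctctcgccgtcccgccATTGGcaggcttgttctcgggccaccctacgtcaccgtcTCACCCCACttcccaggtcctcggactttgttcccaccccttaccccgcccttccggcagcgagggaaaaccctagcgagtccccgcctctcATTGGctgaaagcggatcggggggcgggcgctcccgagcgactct
Mvd: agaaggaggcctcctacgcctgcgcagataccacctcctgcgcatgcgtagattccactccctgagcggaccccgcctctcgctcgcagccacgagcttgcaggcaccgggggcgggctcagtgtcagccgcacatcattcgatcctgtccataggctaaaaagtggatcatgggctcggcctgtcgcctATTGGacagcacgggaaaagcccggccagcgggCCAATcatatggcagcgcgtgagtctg
Hsd17b7: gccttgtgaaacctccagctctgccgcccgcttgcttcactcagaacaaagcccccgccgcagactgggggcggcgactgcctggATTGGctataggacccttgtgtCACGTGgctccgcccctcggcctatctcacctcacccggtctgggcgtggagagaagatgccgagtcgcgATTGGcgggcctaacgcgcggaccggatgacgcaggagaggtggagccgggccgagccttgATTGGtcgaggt
Srebf2: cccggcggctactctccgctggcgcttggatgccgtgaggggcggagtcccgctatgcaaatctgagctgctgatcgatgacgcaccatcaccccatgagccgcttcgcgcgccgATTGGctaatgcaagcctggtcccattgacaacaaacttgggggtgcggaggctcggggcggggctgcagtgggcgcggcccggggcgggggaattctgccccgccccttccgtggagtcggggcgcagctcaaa
In Hmgcs1 the sterol regulatory element stood at -137 to -129 from the start, with ATTGG at -237, -176 and -45. Both strands were searched, a gene was counted if any of its windows held the motif, and none of the motifs overlap one another in the windows printed. The sterol regulatory element was found in 1 of 23 genes, against 1.22% of all genes with a window. The E-box was in 6 of 23, Abca1, Dhcr7, Hsd17b7, Insig1, Sc5d and Scap, against 6.86% of all genes. The CCAAT box was in 19 of 23 (82.6%), against 37.5% of all genes and 39.5% of protein-coding ones. The LXR element, a direct repeat of a nuclear receptor half-site spaced by 4 bases, was found in 0 of 23 and in 0.0148% of all genes. These are matches of letters within 250 bases, and nothing about binding was measured. Elements that depart from these letters or lie elsewhere were not sought.

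Between BRSST+sgLuc and sgLuc, 8 of the 22 tested genes fell and 0 rose, in a comparison in which 22.5% of all genes tested passed the threshold, 11.7% downwards and 10.8% upwards. The fallen genes were Hmgcs1 and Mvd of the mevalonate arm, Fdft1, Sqle, Cyp51, Msmo1 and Hsd17b7 of the squalene and sterol arm, and Srebf2, the transcription factor of the pathway. Their signals were 42.2% to 68.7% of those in sgLuc. With no filter on low signal, 7 of the 24 genes with a row fell, without Cyp51 (limma adjusted p = 0.0629). The median difference of the 22 genes was log2 -0.19, against 0.01 for all genes tested, and 19 of the 22 had the lower mean in BRSST+sgLuc. In bulk marrow, fewer cells of a type and less RNA per cell cannot be told apart.

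**Figure D1:**
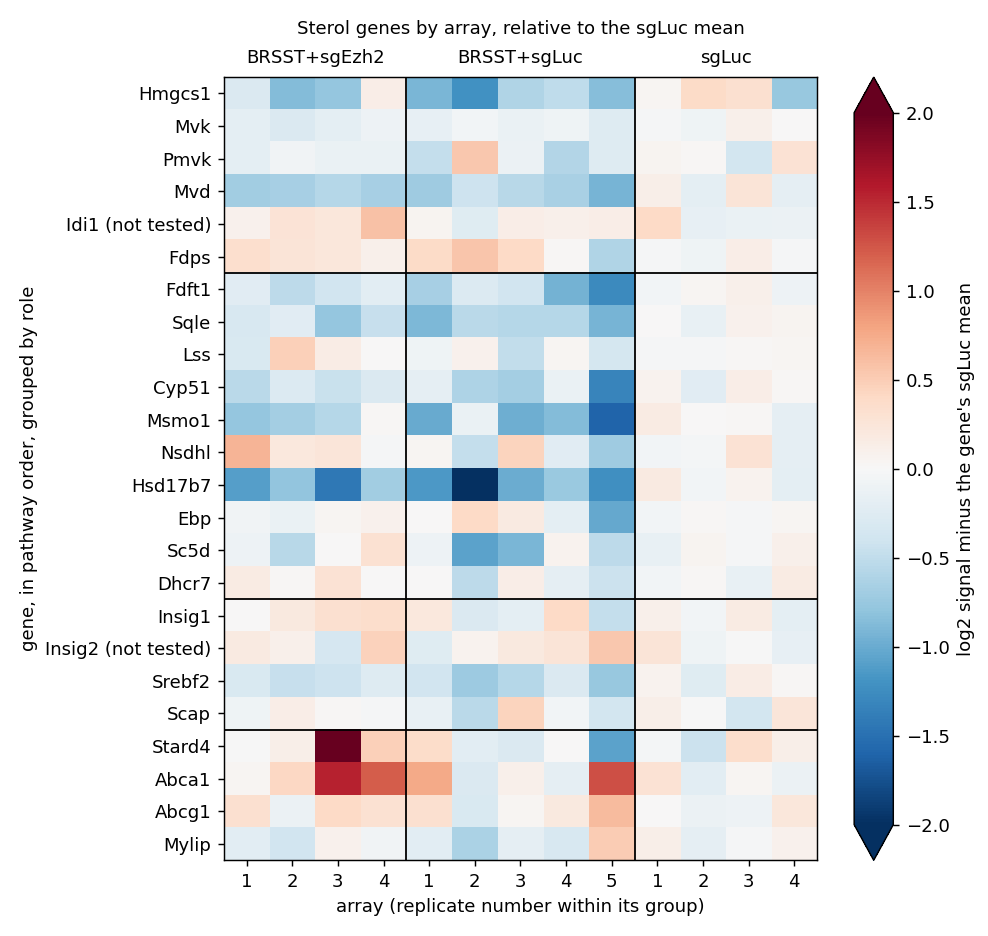
Log2 signal of each of the 24 genes with a row (vertical axis, in pathway order, black lines between roles) on each of the 13 arrays (horizontal axis, by group and replicate number), as the difference from the gene's mean over the sgLuc arrays. Blue is below that mean and red above it, the scale ends at 2 in both directions, and the blue cells of Mvd, Sqle, Hsd17b7 and Srebf2 run through both BRSST groups.

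The mevalonate arm turns acetyl-CoA into the farnesyl units of sterols. Hmgcs1, the cytosolic synthase that makes HMG-CoA, had log2 signals of 8.33, 8.67, 8.61 and 7.53 on the sgLuc arrays, 7.37, 7.08, 7.68, 7.77 and 7.44 on BRSST+sgLuc and 7.99, 7.42, 7.51 and 8.42 on BRSST+sgEzh2. The sgLuc arrays of replicates 1, 2 and 3 were above every BRSST+sgLuc array, and sgLuc replicate 4 was within their range. The fall was log2 -0.82 ± 0.25 (SE, n = 5 and 4, limma adjusted p = 0.0307). The call ended when BRSST+sgLuc replicate 1 or 2 was left out (adjusted p = 0.0653 and 0.0543), and likewise for sgLuc replicate 1, 2 or 3 (0.0756, 0.101 and 0.0892).

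Mvd, the decarboxylase that yields isopentenyl diphosphate, read 9.49, 9.19, 9.63 and 9.20 in sgLuc, 8.67, 8.97, 8.83, 8.73 and 8.45 in BRSST+sgLuc and 8.69, 8.72, 8.80 and 8.71 in BRSST+sgEzh2. Every array of both BRSST groups was below every sgLuc array. It fell by 0.65 on the log2 scale in BRSST+sgLuc (n = 5 and 4, SE 0.12, limma adjusted p = 0.00251) and by 0.65 in BRSST+sgEzh2 (SE 0.13, n = 4 and 4, adjusted p = 0.0063). It kept the call in each of the 9 and 8 fits that left out 1 array.

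The other enzymes of the arm that were tested did not pass against sgLuc. Mvk and Pmvk, the kinases that phosphorylate mevalonate and its product, differed by log2 -0.14 (95% interval -0.32 to 0.05) and -0.18 (-0.60 to 0.24) between BRSST+sgLuc and sgLuc. With array quality weights, which count arrays that vary more for less, Pmvk did pass (log2 -0.461, limma adjusted p = 0.00833). Fdps, which joins the isoprene units into farnesyl diphosphate, had signals of 10.88, 11.05, 10.89, 10.52 and 9.89 in BRSST+sgLuc and 10.48, 10.41, 10.63 and 10.47 in sgLuc, and a difference of log2 0.15 (-0.26 to 0.55). BRSST+sgLuc replicates 1, 2 and 3 were above all sgLuc arrays for Fdps, and replicate 5 was below them all. Idi1, the isomerase between Mvd and Fdps, was near the floor of the arrays with signals from 4.68 to 5.51.

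**Figure D2:**
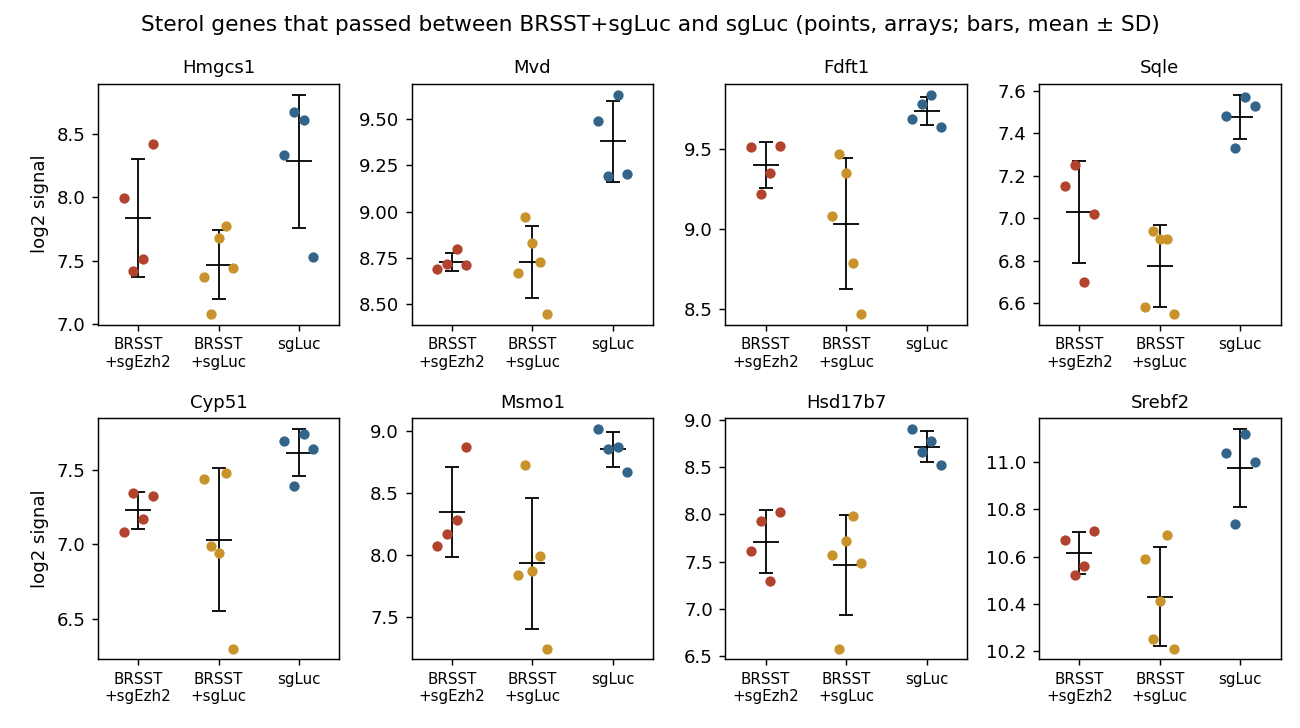
Log2 signal (vertical axis, a separate scale for each gene) of the 8 genes that fell between BRSST+sgLuc and sgLuc, by group, with a point for each array and bars for mean ± SD. For Mvd, Fdft1, Sqle, Hsd17b7 and Srebf2 all points of BRSST+sgLuc lie below all points of sgLuc, and for those genes and Cyp51 so do all points of BRSST+sgEzh2.

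The squalene and sterol arm leads from farnesyl diphosphate to cholesterol. All 10 tested enzymes of this arm had the lower mean in BRSST+sgLuc than in sgLuc, and 5 of them fell. Fdft1, squalene synthase, read 9.69, 9.78, 9.84 and 9.64 in sgLuc and 9.08, 9.47, 9.35, 8.79 and 8.47 in BRSST+sgLuc. Sqle, the epoxidase that opens squalene for ring closure and a flux-controlling step, read 7.48, 7.33, 7.57 and 7.53 and 6.58, 6.94, 6.90, 6.90 and 6.55. Neither gene's groups overlapped, which held for 5 of the 22 genes downwards and 0 upwards, and for 9.82% and 9.09% of all genes tested. Fdft1 fell by 0.71 (SE 0.17, limma adjusted p = 0.0105) and Sqle by 0.70 (SE 0.13, adjusted p = 0.00234) on the log2 scale, with n = 5 and 4. Since the filter let Sqle in through its sgLuc arrays alone, the fit without the filter is the one to read, and there its adjusted p was 0.00282.

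Past the first sterol, lanosterol, come demethylation and bond shifts. Cyp51, which removes a methyl group from lanosterol, read 7.69, 7.39, 7.74 and 7.64 in sgLuc and 7.44, 6.99, 6.94, 7.48 and 6.30 in BRSST+sgLuc, where replicates 1 and 4 reached into the sgLuc range and replicate 5 was far below. Its fall of log2 -0.59 ± 0.20 (SE, n = 5 and 4, limma adjusted p = 0.0461) was near the threshold. It did not pass without BRSST+sgLuc replicate 2 or 3 (adjusted p = 0.062 and 0.0746), nor without sgLuc replicate 1, 2, 3 or 4 (0.112, 0.057, 0.105 and 0.0928). Msmo1, the methyl sterol oxidase of the same demethylation, read 9.01, 8.85, 8.87 and 8.67 in sgLuc and 7.84, 8.72, 7.87, 7.99 and 7.25 in BRSST+sgLuc. BRSST+sgLuc replicate 2 was inside the sgLuc range and the other arrays were below it. Msmo1 fell by log2 0.91 (n = 5 and 4, SE 0.24, adjusted p = 0.0138).

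Hsd17b7, the ketoreductase of the demethylation complex, had the largest fall of the 22 genes. Its log2 signals were 8.90, 8.66, 8.78 and 8.52 in sgLuc, 7.57, 6.58, 7.72, 7.98 and 7.49 in BRSST+sgLuc and 7.61, 7.93, 7.29 and 8.02 in BRSST+sgEzh2. Both BRSST groups were below every sgLuc array, and BRSST+sgLuc replicate 2 was the lowest of all. The difference was log2 -1.24 ± 0.23 between BRSST+sgLuc and sgLuc, 42.2% of the sgLuc signal (SE, n = 5 and 4, limma adjusted p = 0.00248). Its promoter window, printed above, holds the E-box at -143 to -138 and ATTGG at -165, -73 and -12.

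The remaining enzymes of the arm had intervals that include 0 or did not pass after adjustment. Sc5d, which introduces the ring double bond of lathosterol, differed by log2 -0.51 (-0.99 to -0.03, adjusted p = 0.119, and 0.0492 without BRSST+sgLuc replicate 4). The others were Lss, which closes the sterol rings, Nsdhl, a decarboxylating sterol dehydrogenase, Ebp, a sterol isomerase, and Dhcr7, the last reductase on the way to cholesterol. They differed by log2 -0.13 (Ebp) to -0.20 (Dhcr7), and each interval included 0, the widest being that of Ebp (-0.59 to 0.33). Fallen and other enzymes thus stood next to each other along the pathway.

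Srebf2 encodes SREBP2, the SREBP most tied to cholesterol synthesis. It read 11.04, 10.74, 11.12 and 11.00 in sgLuc, 10.59, 10.25, 10.41, 10.69 and 10.21 in BRSST+sgLuc and 10.67, 10.52, 10.56 and 10.71 in BRSST+sgEzh2. No array of either BRSST group reached the lowest sgLuc array. The fall in BRSST+sgLuc was 0.54 on the log2 scale (n = 5 and 4, SE 0.12, limma adjusted p = 0.00655). Insig1, which retains SREBP in the endoplasmic reticulum and is itself a target of it, read 8.27, 7.77, 7.86, 8.45 and 7.57 in BRSST+sgLuc and 8.15, 8.0, 8.21 and 7.85 in sgLuc, and differed by log2 -0.07 (-0.43 to 0.29). Scap, the escort of SREBP, differed by -0.13 (-0.51 to 0.25). For Insig1, BRSST+sgLuc replicates 1 and 4 were above all sgLuc arrays and replicates 2 and 5 below them all.

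**Figure D3:**
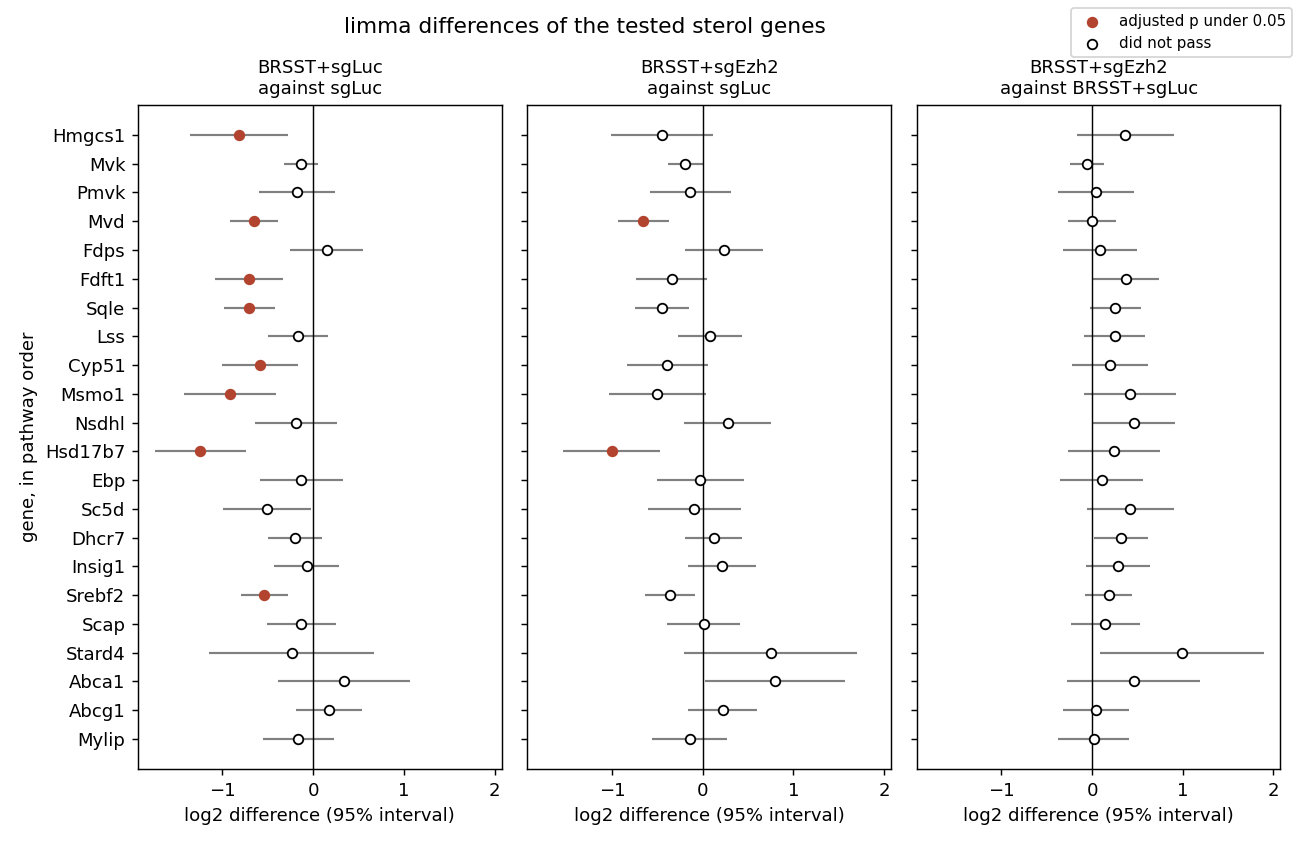
Log2 difference between groups (horizontal axis) with its 95% interval for the 22 tested genes (vertical axis, in pathway order) in 3 comparisons, with filled points where the limma adjusted p passed 0.05. There are 8 filled points for BRSST+sgLuc against sgLuc, 2 for BRSST+sgEzh2 against sgLuc and 0 between the BRSST groups, where most points lie right of 0.

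BRSST+sgEzh2 against sgLuc asks the same of marrow that also carried the Ezh2 guide. It shares the sgLuc arrays with the comparison above, so the values of both are not independent. Of the 22 genes, 2 fell, Mvd and Hsd17b7, and 0 rose, where 9.37% of all genes tested passed, 3.86% downwards and 5.51% upwards. Hsd17b7 fell by log2 1.00 (SE 0.25, n = 4 and 4, limma adjusted p = 0.0215). Without BRSST+sgEzh2 replicate 1 or 3, or without sgLuc replicate 1, 2 or 3, it did not pass (adjusted p = 0.0604, 0.0595, 0.0721, 0.0511 and 0.0543).

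Groups that did not overlap were more common than calls here, with 7 of the 22 genes lower in all BRSST+sgEzh2 arrays and 0 higher, against 9.06% and 14.2% of all genes tested. Besides Mvd and Hsd17b7 these were Sqle, Srebf2, Cyp51, Fdft1 and Mvk. Sqle read 7.15, 7.25, 6.70 and 7.02 in BRSST+sgEzh2, and its difference of log2 -0.44 ± 0.14 (SE, n = 4 and 4) had a limma adjusted p of 0.0589, or 0.0774 without the filter that it passed through the sgLuc arrays alone. Srebf2 differed by -0.36 ± 0.13 (adjusted p = 0.0984), Cyp51 by -0.39 ± 0.21 (0.274), Fdft1 by -0.34 ± 0.18 (0.279) and Mvk by -0.19 ± 0.09 (0.225). The SEs rest on the spread within all 3 groups, BRSST+sgLuc included. With only the 2 groups in the fit, Srebf2, Cyp51 and Fdft1 passed (limma adjusted p = 0.044, 0.0354 and 0.0441). Sqle, let in through sgLuc alone, also passed there (0.0386). In that fit 6 of 22 genes passed, beside 1822 of all 10601 tested. Hmgcs1 read 7.99, 7.42, 7.51 and 8.42 in BRSST+sgEzh2 and overlapped the wide sgLuc range, with a difference of -0.45 (95% interval -1.01 to 0.12). Msmo1 read 8.07, 8.17, 8.28 and 8.87, where replicate 4 lay inside the sgLuc range, and differed by -0.50 (-1.03 to 0.03).

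BRSST+sgEzh2 against BRSST+sgLuc compares BRSST marrow with the Ezh2 guide and with sgLuc. Since the labels do not give the reason for harvest of each array, the guide and that reason cannot be told apart. None of the 22 genes passed in limma, where 0.783% of all genes tested did (0.67% upwards and 0.113% downwards), and 3 had an unadjusted p under 0.05 (Stard4, Dhcr7 and Nsdhl). No gene's groups separated, as against 2.52% of all genes tested upwards and 1.01% downwards. The BRSST+sgEzh2 mean was higher for 20 of the 22 genes, with a median difference of log2 0.24 against 0.01 for all genes tested. The comparison shares the BRSST+sgLuc arrays with the first one, so this direction is no second observation of the falls described there.

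Among the enzymes, Nsdhl read 9.90, 9.44, 9.47 and 9.21 in BRSST+sgEzh2 and 9.27, 8.75, 9.68, 9.0 and 8.52 in BRSST+sgLuc, a difference of log2 0.46 (95% interval 0.01 to 0.91, limma adjusted p = 0.345). Dhcr7 read 8.89, 8.75, 9.01 and 8.73 and 8.72, 8.20, 8.86, 8.54 and 8.29, a difference of 0.32 (0.03 to 0.62, adjusted p = 0.313). For Nsdhl BRSST+sgLuc replicates 2, 4 and 5 were below all BRSST+sgEzh2 arrays, and for Dhcr7 replicates 1, 2, 4 and 5 were, replicate 1 barely. Of the genes that fell against sgLuc, Msmo1 differed most, by 0.42 (-0.09 to 0.92), and Fdft1 next, by 0.37 (-0.001 to 0.741). Mvd had nearly the same mean in both BRSST groups, with a difference of -0.003 (-0.27 to 0.26). For Hsd17b7 the difference was 0.24 (-0.26 to 0.75) and for Srebf2 0.18 (-0.07 to 0.44).

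The BRSST+sgLuc arrays differed among themselves more for these genes than for most. The median SD of the 22 genes was 0.412 there, against 0.177 in BRSST+sgEzh2 and 0.155 in sgLuc, while over all genes tested the medians were 0.248, 0.188 and 0.154. BRSST+sgLuc replicate 5 was the lowest of its group for 9 of the 15 tested enzymes and the highest for 0. Replicate 2 was the highest for 9 and the lowest for 4, among them Hmgcs1 and Hsd17b7. As a mean over the 15 enzymes, the log2 signal was 8.81 to 8.93 in sgLuc, 8.58 to 8.74 in BRSST+sgEzh2, and 8.47, 8.47, 8.51, 8.49 and 8.05 on the BRSST+sgLuc arrays. The ranges of the 3 groups did not overlap, and BRSST+sgLuc was the lowest also without replicate 5. Its highest array, 8.51, was near the lowest of BRSST+sgEzh2, 8.58, and no enzyme passed between these groups. The 15 enzymes include Sqle, which the filter let in through its sgLuc arrays alone, so these means are descriptions.

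Without BRSST+sgLuc replicates 2 and 5, a choice made with these arrays known to lie apart, Mvd, Fdft1, Sqle, Msmo1, Hsd17b7 and Srebf2 still fell against sgLuc. Hmgcs1 (adjusted p = 0.097) and Cyp51 (0.106) did not pass. In the same fit Sqle, Srebf2 and Msmo1 also passed between BRSST+sgEzh2 and sgLuc (limma adjusted p = 0.0356, 0.04 and 0.0498). That made 5 of 22 genes, beside 1739 of all 10601 genes tested. The differences of Sqle, Srebf2 and Msmo1 there, log2 -0.44, -0.36 and -0.50, were those of the fit to all arrays, and the estimate of spread changed. Sqle entered both comparisons through its sgLuc arrays alone. With all arrays and no filter its limma adjusted p between BRSST+sgEzh2 and sgLuc was 0.0774.

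Of the 4 tested genes of sterol carriage and export, 0 passed in any comparison. Stard4, a carrier of cholesterol between membranes and an SREBP target, read 7.28, 7.41, 9.73 and 7.77 in BRSST+sgEzh2, 7.66, 7.09, 7.01, 7.31 and 6.23 in BRSST+sgLuc and 7.26, 6.87, 7.64 and 7.41 in sgLuc. BRSST+sgEzh2 replicate 3 stood far above all other arrays, and BRSST+sgLuc replicate 5 was the lowest. The difference of log2 0.99 ± 0.42 between the BRSST groups (SE, n = 4 and 5, limma adjusted p = 0.312) became 0.43 without BRSST+sgEzh2 replicate 3.

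Abca1, the LXR-driven transporter that loads cholesterol onto lipid-poor apolipoproteins, read 7.05, 7.43, 8.55 and 8.23 in BRSST+sgEzh2, 7.78, 6.73, 7.12, 6.84 and 8.31 in BRSST+sgLuc and 7.31, 6.80, 7.06 and 6.90 in sgLuc. Replicates 2, 3 and 4 of BRSST+sgEzh2 and replicates 1 and 5 of BRSST+sgLuc were above all sgLuc arrays. Its largest difference was log2 0.80 (0.03 to 1.57, adjusted p = 0.187) between BRSST+sgEzh2 and sgLuc. Abcg1, which exports cholesterol to HDL, differed by 0.22 (-0.16 to 0.60) and Mylip, an LXR-induced ubiquitin ligase that degrades lipoprotein receptors, by -0.14 (-0.56 to 0.27) in that comparison. BRSST+sgLuc replicate 5, lowest for most enzymes, was the highest of its group for Abca1, Abcg1 and Mylip.

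**Figure D4:**
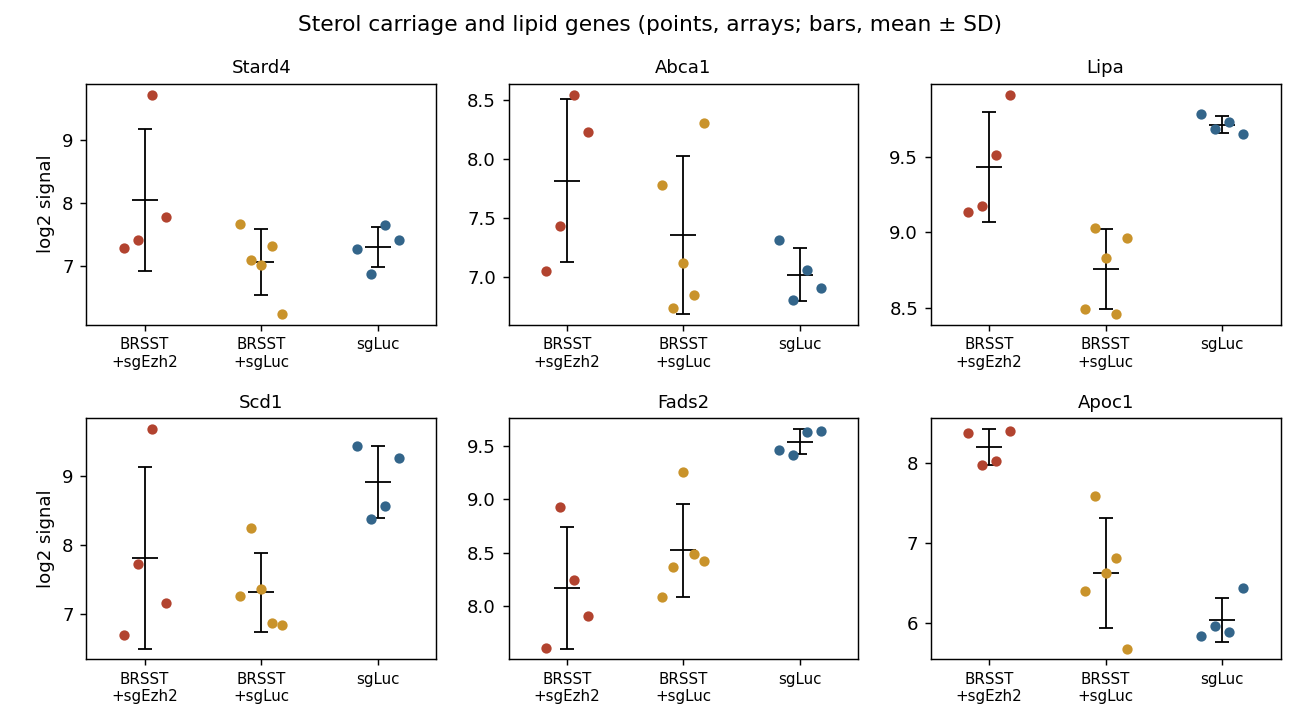
Log2 signal (vertical axis, a separate scale for each gene) of Stard4 and Abca1 and of the lipid genes Lipa, Scd1, Fads2 and Apoc1 by group, with a point for each array and bars for mean ± SD. Stard4 in BRSST+sgEzh2 rests on 1 array near 9.73, Lipa and Fads2 of BRSST+sgLuc lie below all sgLuc arrays, and Apoc1 is highest in BRSST+sgEzh2.

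The wider pathway was read from further gene lists. Of other sterol synthesis enzymes 3 were tested and 1 passed in any comparison, Acat1, a mitochondrial acetyl-CoA thiolase. It was higher in BRSST+sgEzh2 than in sgLuc by log2 0.43 ± 0.13 (limma adjusted p = 0.0477), where 5.51% of all genes tested rose. This call ended whichever of the 8 arrays was left out (adjusted p up to 0.113). The isoprenoid branch, which draws on the same farnesyl units for protein prenylation, dolichol and coenzyme Q, had 9 tested genes. Between BRSST+sgLuc and sgLuc, Ggps1, which makes geranylgeranyl diphosphate, was higher by 0.52 ± 0.17 (adjusted p = 0.0381) and Dhdds, a subunit of the dolichol-chain synthase, lower by log2 -0.52 ± 0.15 (0.0258). There were 8 tested genes of SREBP processing and degradation control. Pgrmc1, a haem-binding membrane protein that interacts with Insig1 and Scap, was higher in BRSST+sgLuc than in sgLuc by 0.51 ± 0.16 (0.0323). In that comparison 10.8% of all genes tested rose and 11.7% fell.

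Uptake and lysosomal release supply cholesterol from outside the cell. Of 9 tested genes 2 fell between BRSST+sgLuc and sgLuc, where 11.7% of all genes tested fell. Lipa, the lysosomal acid lipase that frees cholesterol from its esters, read 9.78, 9.68, 9.73 and 9.65 in sgLuc, 8.49, 9.03, 8.83, 8.46 and 8.96 in BRSST+sgLuc and 9.13, 9.17, 9.51 and 9.91 in BRSST+sgEzh2. All BRSST+sgLuc arrays were below the sgLuc and the BRSST+sgEzh2 arrays. It fell by log2 0.96 (n = 5 and 4, SE 0.17, limma adjusted p = 0.00159), and its difference between the BRSST groups was 0.68 ± 0.17 (adjusted p = 0.0763). Npc1, which passes cholesterol out of the lysosome, differed by -0.40 ± 0.14 from sgLuc (0.0479). Of 3 tested genes of esterification and oxysterols, Cyp27a1, a mitochondrial sterol hydroxylase, fell by log2 0.92 (SE 0.30, adjusted p = 0.042).

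The SREBP-driven genes of fatty acid synthesis had 15 tested members, of which 3 fell between BRSST+sgLuc and sgLuc, beside 11.7% of all genes tested. Scd1, the stearoyl-CoA desaturase, read 9.43, 8.37, 8.56 and 9.26 in sgLuc, 7.26, 8.25, 7.37, 6.87 and 6.84 in BRSST+sgLuc and 6.70, 7.72, 9.67 and 7.16 in BRSST+sgEzh2, with BRSST+sgEzh2 replicate 3 the highest array of all. Its fall in BRSST+sgLuc was log2 -1.58 ± 0.49 (SE, n = 5 and 4, limma adjusted p = 0.0323). Fads2, a fatty acid desaturase, fell by log2 1.01 (SE 0.25, adjusted p = 0.0109) in BRSST+sgLuc and by 1.36 (SE 0.26, adjusted p = 0.00524) in BRSST+sgEzh2, and neither group overlapped sgLuc. Lpin1, a phosphatidate phosphatase, fell by 0.70 (SE 0.23, adjusted p = 0.0475) in BRSST+sgLuc. The other 12 genes, among them Fasn at log2 0.36 ± 0.20 and Acly at -0.09 ± 0.12, did not pass.

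LXR partners and targets had 6 tested genes. Apoc1, an apolipoprotein gene beside Apoe that LXR induces in macrophages, read 8.38, 7.98, 8.02 and 8.40 in BRSST+sgEzh2, 6.40, 7.59, 6.63, 6.81 and 5.68 in BRSST+sgLuc and 5.84, 5.96, 5.89 and 6.44 in sgLuc. Every BRSST+sgEzh2 array was above every other array. It rose by log2 1.57 ± 0.28 over BRSST+sgLuc (SE, n = 4 and 5, limma adjusted p = 0.0204), a call that ended when any 1 of BRSST+sgEzh2 replicates 1 and 4 and BRSST+sgLuc replicate 1 was dropped (adjusted p = 0.0663, 0.088 and 0.0685). The call also ended with only those 2 groups in the fit (0.0992), with the replicate number as a block (0.0555) and at a threshold of 0.01. Apoc1 was above the array median on 5 arrays, the 4 of BRSST+sgEzh2 and BRSST+sgLuc replicate 2, so it passed the filter through the group where it is high, and without the filter its adjusted p was 0.0155. In the same comparison the monocyte and macrophage markers had the higher mean in BRSST+sgEzh2 for 13 of 16 tested genes. Their median difference was log2 0.68, against 0.01 for all genes tested. Mpeg1, a macrophage pore-forming protein, was the 1 that passed (log2 1.38 ± 0.28, limma adjusted p = 0.0371), beside 0.67% of all genes upwards. The 3 with the lower mean were C1qa (log2 -0.90), C1qb (-0.65) and Vcam1 (-0.22), and they did not pass. Other marker lists shifted in this comparison too. B-lineage markers had the higher mean in BRSST+sgEzh2 for 15 of 15 tested genes (median log2 0.82) and T and NK markers for 10 of 12 (0.98). Erythroid markers had the lower mean for 11 of 11 (-0.39), and 0 genes of these 3 lists passed. The medians of the dendritic (-0.06) and neutrophil (0.04) lists were small. The part of any of these markers in the Apoc1 difference was not tested. Over sgLuc, where 5.51% of all genes tested rose, Apoc1 rose by 2.16 ± 0.30 (n = 4 and 4, adjusted p = 0.000449). Apoe, the lipoprotein ligand that carries exported cholesterol, rose by 1.45 ± 0.31 over sgLuc (adjusted p = 0.00909), and its difference between the BRSST groups was 0.64 ± 0.29 (adjusted p = 0.34).

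Leaving out 1 array ended many of the calls among these further genes. Lipa and Fads2 kept theirs in each of the 9 fits between BRSST+sgLuc and sgLuc. Dhdds kept it in 5, Pgrmc1 and Scd1 in 4, Ggps1 in 3, Cyp27a1 and Lpin1 in 2 and Npc1 in 1 of the 9. Without sgLuc replicate 1 none of these 7 passed (limma adjusted p = 0.0549 to 0.1). These lists were written with earlier results of the same arrays known, so their counts are descriptions.

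Marker genes of several blood cell types also differed between the groups in the same arrays. Between BRSST+sgLuc and sgLuc, 14 of the 15 tested B-lineage marker genes fell, as did 6 of 12 T and NK cell genes, 8 of 16 monocyte and macrophage genes, 5 of 7 basophil, mast cell and eosinophil genes, 6 of 12 dendritic genes and 4 of 7 plasma cell genes. Of 11 erythroid genes 4 rose. Of all genes tested, 11.7% fell and 10.8% rose in this comparison. Some markers had means above the array medians only in sgLuc. Ccr9 had means of log2 8.12 in sgLuc, 5.42 in BRSST+sgLuc and 5.30 in BRSST+sgEzh2, and Fcer1a had 9.53, 6.43 and 6.28. A marker that passed the filter only through its sgLuc arrays had to be lower elsewhere, so the marker counts are descriptions. The mean log2 signal of the 18 measured B-lineage markers was 8.85 to 10.14 in sgLuc, 6.60 to 8.38 in BRSST+sgLuc and 6.75 to 8.77 in BRSST+sgEzh2, and that of the 16 erythroid markers was 7.08 to 7.33, 7.53 to 8.34 and 6.92 to 7.59. Of the B-lineage markers, 1 stayed below the array's lower quartile on all BRSST+sgEzh2 arrays and 0 did in the other groups.

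Over monocyte and macrophage markers, 19 measured, the mean signal was 9.17 to 9.32 in sgLuc, 8.07 to 9.16 in BRSST+sgLuc and 8.56 to 9.33 in BRSST+sgEzh2. The 17 neutrophil markers were at 12.65 to 12.74, 12.45 to 12.55 and 12.51 to 12.67. Between BRSST+sgLuc and sgLuc 6 of them fell and 2 rose, where 11.7% of all genes tested fell and 10.8% rose. The 17 markers of dividing cells overlapped in all groups, at 10.55 to 10.80, 10.05 to 10.92 and 10.36 to 10.69, and 2 of them fell in BRSST+sgLuc against sgLuc. The part of these cell types in the sterol gene results was not tested.

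**Figure D5:**
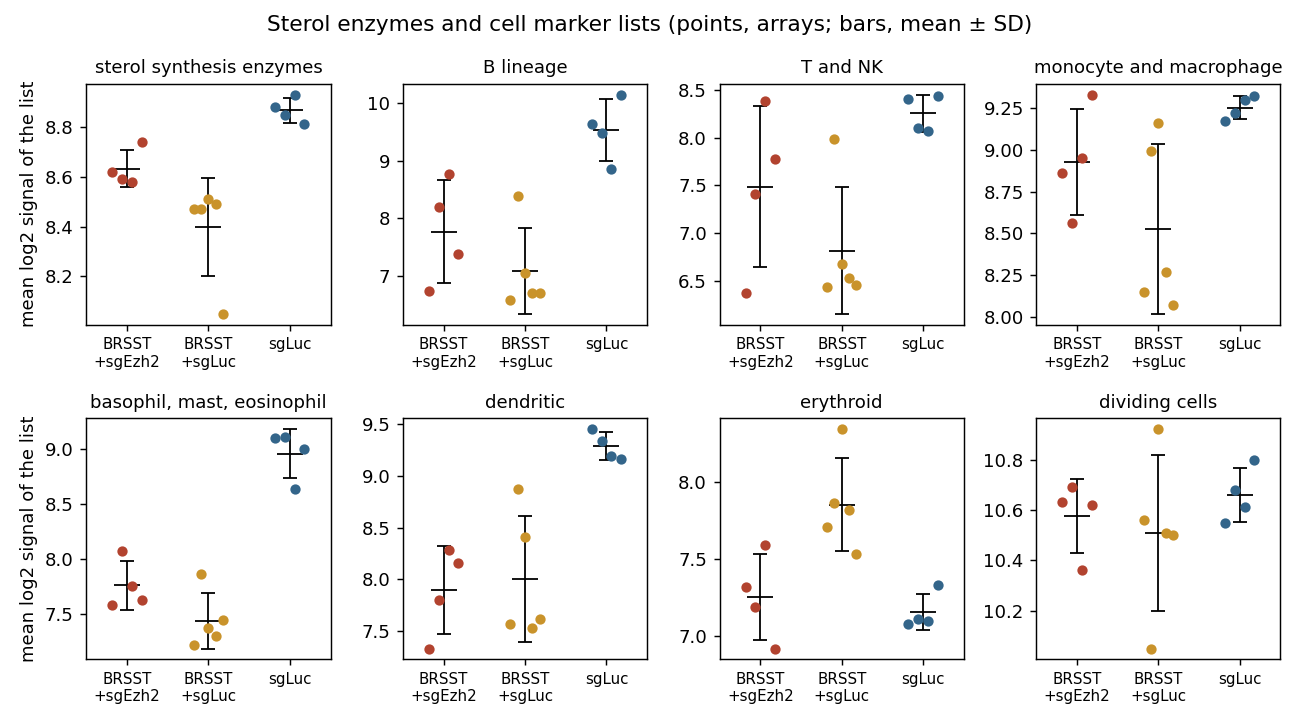
Mean log2 signal over the 15 tested sterol enzymes and over 7 marker lists (vertical axis, a separate scale for each list) by group, with a point for each array and bars for mean ± SD. The enzymes and the B-lineage, basophil and dendritic lists are lower in all BRSST arrays than in all sgLuc arrays. The erythroid list has its highest mean in BRSST+sgLuc, and the dividing-cell list overlaps. The enzymes include Sqle, which passed the filter through sgLuc alone.

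The Y-linked genes Uty and Kdm5d were high on 4 of 4 sgLuc arrays, 2 of 4 BRSST+sgEzh2 arrays and 2 of 5 BRSST+sgLuc arrays. With that class as a block in the fit, Mvd, Fdft1, Sqle, Msmo1, Hsd17b7 and Srebf2 still fell between BRSST+sgLuc and sgLuc. Sqle was again in the fit through its sgLuc arrays alone. Hmgcs1 (limma adjusted p = 0.0641) and Cyp51 (0.233) did not pass, nor did Hsd17b7 between BRSST+sgEzh2 and sgLuc (0.0606). The labels name no batch.

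Among the promoter windows, 6 of the 8 fallen genes have one, and the CCAAT box was found in 6 of those 6, the E-box in 1 and the sterol regulatory element in 1. Of the 14 other tested genes 11 have a window, and the CCAAT box was found in 9, the E-box in 5 and the sterol regulatory element in 0. Mvd carries CCAAT at -27 to -23 and ATTGG at -60 to -56, and Srebf2 carries ATTGG at -135 to -131. The CCAAT box was thus common in fallen and other genes alike.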

How the data were processed

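Whole bone marrow RNA was measured on 13 arrays, 4 of BRSST+sgEzh2, 5 of BRSST+sgLuc and 4 of sgLuc, grouped by the treatment label. Per the labels' protocols, 2 ng of total RNA was amplified with 10 PCR cycles before labelling, a step that can distort large differences. The authors deposited log2 signals, 22203 rows by 13 arrays. Per the submitters' processing notes they used oligo and R 3.5.01. The background correction and the normalization were not given in the labels. Values from 3.23 to 13.75 show a log2 scale.

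Rows were named through the platform annotation (19572 rows have 1 symbol, 0 several and 2631 none), and the row of highest mean was used where a symbol had several (55 symbols, no sterol gene). A gene was tested if above its array's median on at least 4 arrays (10601 genes). A single limma fit (version 3.58.1, R 4.3.3, lmFit then eBayes) covered all 13 arrays without covariates, p-values were adjusted over those genes by Benjamini-Hochberg, 0.05 was the threshold, and the procedure was checked on simulated data. Intervals are 95%. Every adjusted p is from limma. Arrays have no read depth, so their number limits the precision.

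The sterol genes, the other lists, the marker genes and the alternatives were chosen with earlier results of these data known. Named are all 28 sterol genes, Ezh2, and of each further list up to 4 genes that passed in any comparison, by largest difference. In addition Fasn, Acly, Mpeg1, C1qa, C1qb, Vcam1, Ccr9 and Fcer1a were named after their values were seen. Motif matches were sought with Python 3.11.15 and pandas 2.3.3 in RefSeq promoter windows of GRCm38.p6, and figures were drawn with matplotlib 3.10.9. Alternatives were other filters, scalings, variance models, array weights, blocks, a stricter threshold and arrays left out.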

Additional observations from a re-analysis of the deposited data

Results flagged for a closer look

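Idi1, the isopentenyl isomerase, was the one gene of the 24 in which single arrays stood far from their own group by Dixon's test, applied to 72 sets of 4 or 5 arrays. BRSST+sgLuc replicate 2 was the lowest of its group at log2 4.68, with the next array at 4.99. In sgLuc, replicate 1 was the highest at 5.33, with the next at 4.82. Chance flags about 1 in 20 such sets, and these were 2 of 72. Idi1 was below the lower quartile of signal on every array and was not tested.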

How the results depend on the processing

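In BRSST+sgLuc against sgLuc, Mvd, Hsd17b7 and Srebf2 passed under every alternative that could be fitted. Sqle did too, but the filter of these fits let it in through the sgLuc arrays alone, and without that filter its limma adjusted p was 0.00282. The calls of Fdft1 and Msmo1 held under all but the threshold of 0.01 (limma adjusted p = 0.0105 and 0.0138), that of Hmgcs1 under 11 of 20 and that of Cyp51 under 5 of 20. Hmgcs1, Sqle, Cyp51, Msmo1 and Hsd17b7 have no value under the 75th-percentile filter, which kept 8 of the 22 genes. In BRSST+sgEzh2 against sgLuc, Mvd passed under 20 of 20 and Hsd17b7 under 12 of 19. No sterol gene passed between the BRSST groups under any alternative, and the number of arrays limits what smaller differences could be detected there. With array quality weights Pmvk also passed in BRSST+sgLuc against sgLuc (-0.461, 0.00833). The cause of the changes below was not tested.

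The count of fallen sterol genes in BRSST+sgLuc against sgLuc, 8 in the report, was 3 under the 75th-percentile filter, 4 at a threshold of 0.01, and 6 to 9 with single arrays left out. In BRSST+sgEzh2 against sgLuc the count of 2 became 1 under that filter, at 0.01 and with the Y-linked class as a block. It was 6 of 22 with array quality weights (1 of them, Nsdhl, higher), where 2976 of all 10601 genes tested passed, a similar share. With only the 2 groups compared it was 6 of 22, beside 1822 of 10601. It was 5 of 22 without BRSST+sgLuc replicates 2 and 5, beside 1739 of 10601, and 1 to 2 with single arrays left out. Sqle, which the filter let in through the sgLuc arrays alone, is among the genes in the counts of 6, 6 and 5.

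Among all genes tested, the 83 calls between the BRSST groups became 128 without a filter, 36 under the 75th-percentile filter, 55 with equal array medians, 1039 with array quality weights, 17 with only the 2 groups compared, 18 at 0.01, 170 with the Y-linked class as a block, 143 without BRSST+sgLuc replicates 2 and 5, and 22 (without BRSST+sgEzh2 replicate 4) to 377 (without BRSST+sgLuc replicate 3) with single arrays left out. The 2389 calls of BRSST+sgLuc against sgLuc became 4879 with weights, 1102 at 0.01, and 1481 (without sgLuc replicate 1) to 2839 with single arrays left out. The 993 of BRSST+sgEzh2 against sgLuc became 2976 with weights, 1822 with only the 2 groups, 398 at 0.01, 1739 without BRSST+sgLuc replicates 2 and 5, and 519 (without sgLuc replicate 1) to 839 with single arrays left out.

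Deviations of same-numbered arrays correlated at -0.176 to 0.192 over genes. Differently numbered arrays were not compared in this way, so whether the replicate numbers pair the arrays was not settled. With the replicate block, 28 genes passed between the BRSST groups. In BRSST+sgLuc against sgLuc 7 sterol genes passed, without Hmgcs1 (adjusted p = 0.081) and Cyp51 (0.0669) and with Mylip (0.0434). The log2 difference turned sign for Fdps (-0.101) and Ebp (-0.119) between the BRSST groups, and for Ebp (0.094) and Insig1 (0.032) in BRSST+sgLuc against sgLuc. BRSST+sgLuc replicate 5 shares its number with no other array, so leaving it out gives the same 4 values.

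Other differences that changed sign were small and none of them passed on either side. Between the BRSST groups these were Pmvk (-0.029) and Abcg1 (-0.015) under quantile normalization, Mylip (-0.014) with equal medians, Mvd (0.018), Cyp51 (-0.114) and Abcg1 (-0.004) with weights, and Mvd (0.002) with the Y-linked block. Without BRSST+sgLuc replicates 2 and 5 they were Fdps (-0.029), Cyp51 (-0.06), Hsd17b7 (-0.048), Ebp (-0.019) and Scap (-0.071). With single arrays left out, Mvd ran from -0.072 to 0.057, Abcg1 from -0.071 to 0.162, Mylip from -0.098 to 0.186, Pmvk from -0.055 to 0.226, Fdps from -0.101 to 0.19 and Ebp from -0.119 to 0.236.

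In BRSST+sgLuc against sgLuc the sign turned for Insig1 (0.163) and Stard4 (0.196) with weights, Insig1 (0.071) and Abca1 (-0.002) with the Y-linked block, and Nsdhl (0.087), Insig1 (0.139), Scap (0.084) and Stard4 (0.028) without BRSST+sgLuc replicates 2 and 5. Single arrays moved Ebp from -0.261 to 0.094 and Insig1 from -0.187 to 0.032. In BRSST+sgEzh2 against sgLuc it turned for Scap (-0.068) with weights and Sc5d (0.023) with the Y-linked block, and single arrays moved Lss from -0.049 to 0.215, Ebp from -0.062 to 0.013, Sc5d from -0.222 to 0.063 and Scap from -0.108 to 0.095.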
